A study of Homo sapiens with 24 samples.

Results

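The libraries compared here came from Nalm6, an established human cell line of B cell precursor acute lymphoblastic leukaemia, and asked what asparaginase changed in the RNA of these cells. They are 6 of the 24 RNA-sequencing libraries of the series, chosen by their labels: 3 from untreated cells and 3 from cells kept with asparaginase for 24 h. The asparaginase dose was 1 IU/ml by the design text and the sample characteristics but 0.5 IU/ml by the treatment text, and the harvest time of the untreated cells was not stated. Another 3 Nalm6 libraries, from cells given 10 µM ibrutinib, which blocks the kinase BTK, for 24 h, served as a second point of comparison, and 3 untreated and 3 asparaginase libraries of Sem, a precursor B leukaemia line with a rearranged KMT2A gene, showed which changes differed between lines. Nalm6 libraries with both drugs entered the estimate of the spread, the filter on low values and the restoration of decimal places, and no comparison. The samples were called triplicates and separate cultures were not described, so each p-value measures the spread between libraries, which may be technical, and each line is 1 line. Of 58735 genes in the file, 13237 reached 1 FPKM (fragments normalised to gene length and library size) in at least 3 of the 12 Nalm6 libraries and were tested by limma on log2(FPKM + 1). Calls were made at a Benjamini-Hochberg adjusted p below 0.05, and "rose" and "fell" are kept for called genes.

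Asparaginase hydrolyses asparagine outside the cell, and leukaemic lymphoblasts with little asparagine synthetase depend on that supply. A shortage of an amino acid leaves its transfer RNA uncharged, which activates the kinase GCN2 (gene EIF2AK4). GCN2 phosphorylates the initiation factor eIF2, general translation slows, and the messenger RNA of the transcription factor ATF4 is translated better. ATF4, with partners of the C/EBP family, binds composite elements of its own in the promoters of genes for amino acid synthesis, transport and stress. Amino acids also hold the growth kinase mTORC1 on the lysosome, which drives ribosome, lipid and nucleotide synthesis.

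The 6 libraries held 15.4 M to 17.7 M reads assigned to genes. All deposited values of 1 FPKM or more had lost their decimal point and were restored from whole read numbers. Libraries of 1 group correlated at 0.982 to 0.988 across genes and libraries of different groups at 0.945 to 0.953. Genes at 1 FPKM or more numbered 11874 to 11977 in untreated and 12572 to 12635 in asparaginase libraries. Untreated library 2 and asparaginase library 1 stood apart within their groups, each with the lowest trend of expression on GC content. Without both, 3169 genes were called higher and 3342 lower, against 3738 and 3714 with them. All 13 precursor B cell markers were tested (summed 3179 to 3330 FPKM untreated and 2511 to 2566 FPKM with asparaginase), while CD3D, CD3E, CD3G, CSF3R, S100A8 and JCHAIN had no read in any of the 6. Of the other lineages' lists, 7 of 15 myeloid markers, 10 of 16 lymphoid T or NK ones, 4 of 10 for late B stages and 6 of 12 for red or stromal cells were at 0. The summed T and NK markers went from 5.22 to 6.23 FPKM untreated to 8.18 to 12.1 FPKM treated. Of the 2 tested, TRAC rose by 1.01 and NKG7 (-0.05) was not called. Myeloid markers summed to 14.2 to 16.7 FPKM and then 6.82 to 7.31 FPKM, where LYZ changed by -1.43. CD33, the other myeloid marker tested, rose by 0.26, a call lost without untreated library 3. Late B markers went from 134 to 146 FPKM to 97.0 to 109 FPKM, with SDC1 (-1.13) and XBP1 (-0.28) both lower. The part of these markers in other results was not tested.

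Both directions of change were common. Of the 13237 genes tested, 3738 (28.2%) rose and 3714 (28.1%) fell, with median log2 changes of 0.47 and -0.45 among them. Changes of at least 1 on the log2 scale were rarer: 305 genes (2.3%) rose and 223 (1.68%) fell by that much. In 8226 genes (62.1%) the 3 asparaginase libraries lay all above or all below the 3 untreated ones. This held for 3633 of the 3738 genes that rose and 3621 of the 3714 that fell. For a called gene, groups described below as separate or without overlap therefore add little to the call. The balance of rises and falls depended on scaling. The deposited FPKM carried a library factor, 1.005 to 1.018 for untreated and 0.916 to 0.933 for treated cells. The median change of all tested genes was 0.02 as deposited, 0.17 after rescaling each library to 1 fixed total (TPM) and 0.15 by limma-voom on restored reads. TPM gave 5080 higher and 2551 lower genes, voom 4964 and 2810, and quantile normalization 3252 and 3458. Voom and TPM also called 1137 and 947 genes higher by at least 1, against 305 as deposited. In bulk RNA, fewer cells of a type and less RNA per cell cannot be told apart.

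**Figure D1:**
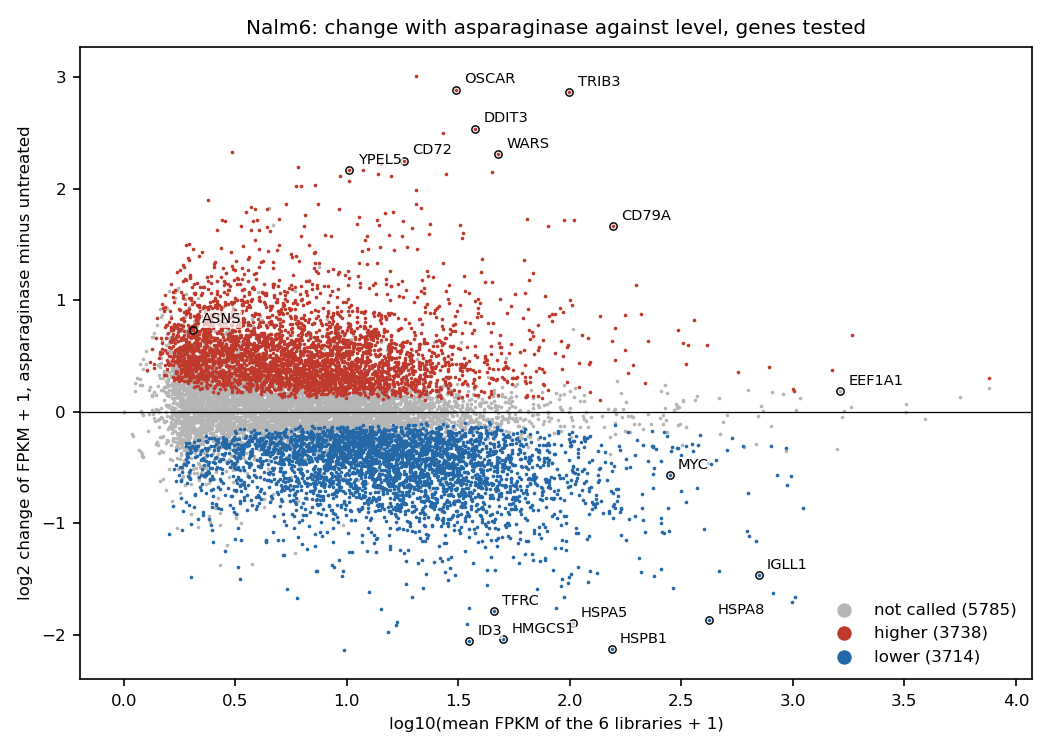
Each point is 1 of 13237 tested genes, by the log10 of its mean FPKM + 1 over the 6 libraries and its log2 change of FPKM + 1 with asparaginase (red, 3738 called higher; blue, 3714 called lower; grey, not called). TRIB3 and OSCAR lie near the top and HSPB1, HMGCS1 and ID3 near the bottom, while the translation factor EEF1A1, among the most abundant, was not called.

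The most strongly expressed genes were called lower more often than higher. Genes were split into deciles by their level in the ibrutinib libraries, which are outside the contrast. In the lowest decile, up to 1.10 FPKM, 690 of 1324 genes were under 1 FPKM in every untreated library, against 195 in every asparaginase library. Many of them passed the filter only through treated groups, so the calls of this decile (38.6% higher, 3.02% lower) are no support for a rise. In the fourth decile (2.91 to 4.36 FPKM), with 2 and 3 such genes, 36.0% of 1324 rose and 13.7% fell, with a median change of 0.11. In the highest decile 11.6% rose and 64.8% fell, with a median of -0.36. From the fourth decile to the highest the median also went down with TPM (0.28 to -0.21) and with voom (0.27 to -0.24), while under quantile normalization, which gives all libraries 1 distribution, it was -0.02 and -0.08. The fourth decile was 72.8% protein-coding and the highest 92.3%. By gene length the calls differed less evenly: in the third decile (1448 to 2391 bases) 24.2% rose and 35.4% fell, and in the longest decile 42.4% rose and 20.1% fell. The part of level, length or annotation class in any single change was not tested.

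**Figure D2:**
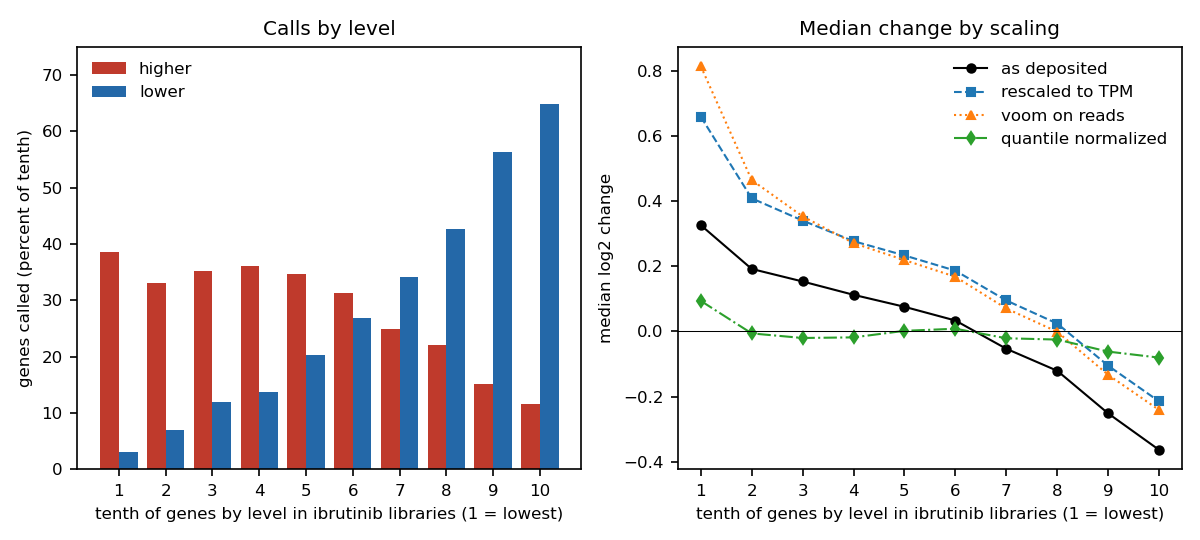
Left, percent of genes called higher (red) and lower (blue) in each decile of tested genes by level in the ibrutinib libraries. Right, median log2 change of each decile under 4 scalings: lower calls grew from 13.7% in the fourth decile to 64.8% in the last, and over these the medians went down with level except under quantile normalization, while the first decile holds genes that passed the filter only through treated groups.

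Calls by annotation class are given as counts, with no test between classes. Of 10004 protein-coding genes 2858 rose and 3408 fell (median -0.03). Of 447 long intergenic non-coding genes 181 rose and 27 fell (median 0.32), of 130 sense intronic genes 45 rose and 5 fell, and of 251 unprocessed pseudogenes 121 rose and 12 fell. Other non-coding classes were more even: of 1290 antisense genes 305 rose and 180 fell (median 0.10), of 267 processed pseudogenes 32 rose and 32 fell (median -0.06), and of 97 small nucleolar RNAs 7 rose and 6 fell. Of the intergenic genes 91 were under 1 FPKM in every untreated library and 27 in every asparaginase library. For sense intronic genes these numbers were 30 and 10, for unprocessed pseudogenes 48 and 7, and for antisense genes 169 and 65. Part of each of these classes, too, passed the filter only through treated groups, so their higher counts are not read as a trait of the class. Long non-coding RNA took 1.63% ± 0.0195 of reads in untreated and 2.06% ± 0.0454 in treated cells (SD, n = 3), without overlap. These classes also had low levels (median 1.36 FPKM untreated for intergenic against 8.83 FPKM for protein-coding genes), and level and class were not separated. The kit's handling of strand was not stated, so reads of antisense and intronic genes may belong to the gene they overlap.

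**Figure D3:**
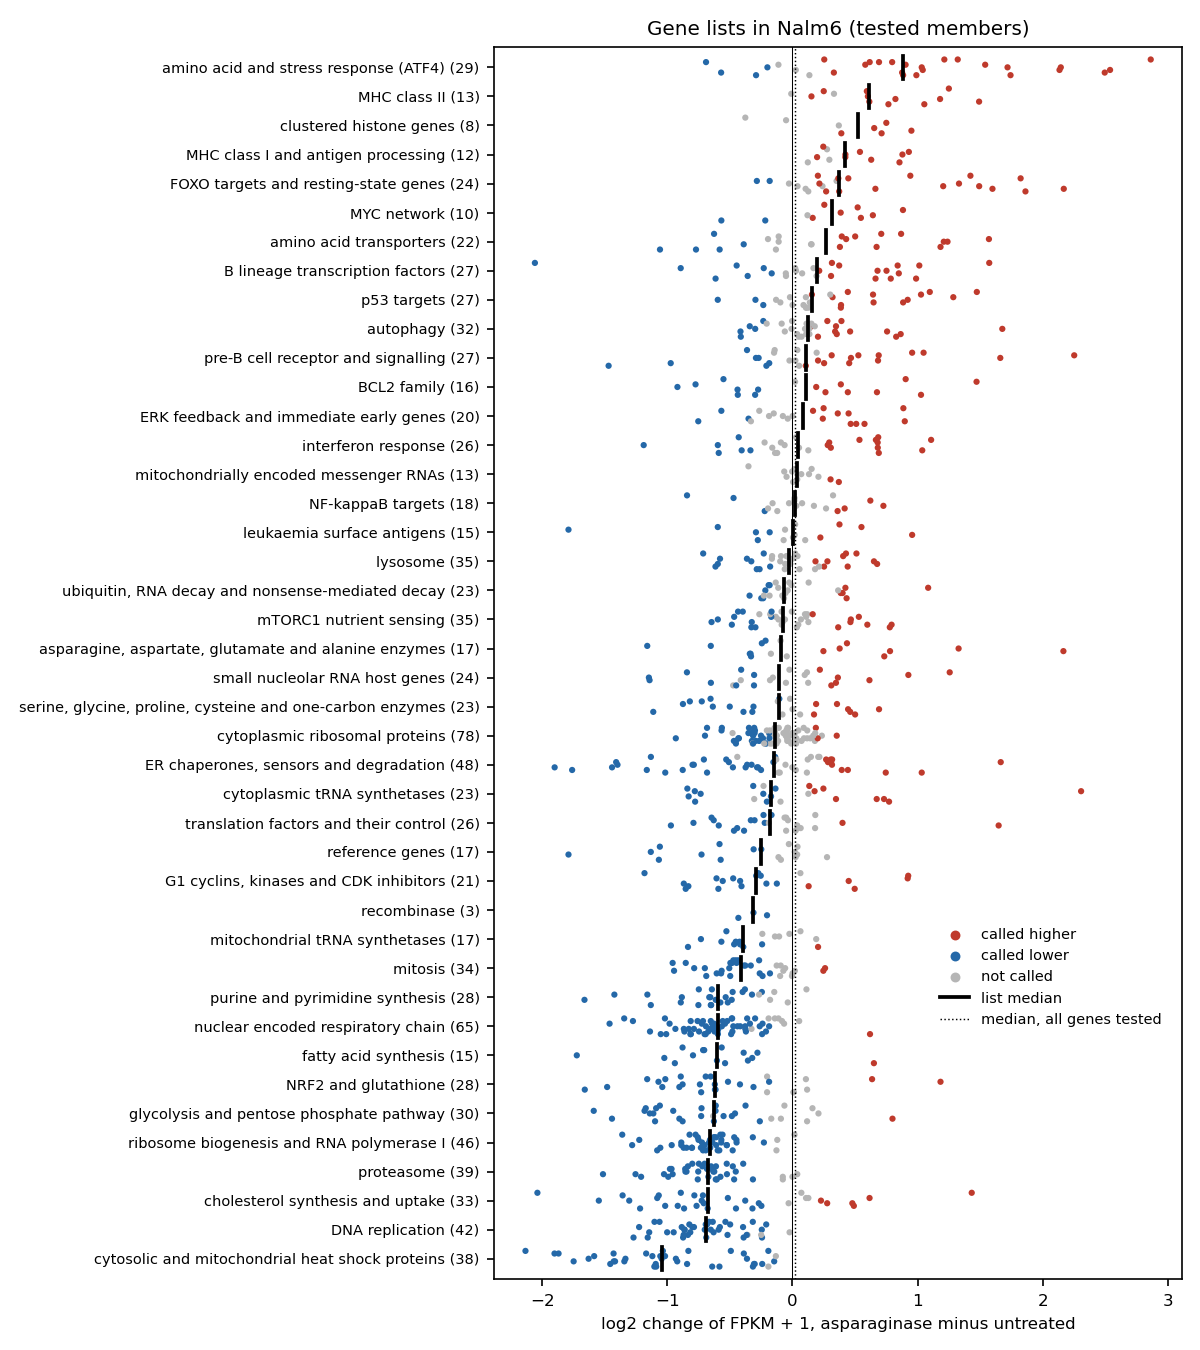
Log2 change of every tested member of 42 gene lists (points; red, called higher; blue, called lower; grey, not called) with the list median (black bar) and the median of all genes tested (dotted). The ATF4 list has the highest median (0.88) and the heat shock list the lowest (-1.04).

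Targets and transcription factors of the amino acid response rose, while none of its kinases and sensors did. Lists and members, here and below, were chosen with earlier results of these data known, so their counts are descriptions and not tests. They are to be set against the shares of all genes tested, of which 28.2% rose and 28.1% fell. For lists of strongly expressed genes the highest decile by level, with 11.6% and 64.8%, is the nearer measure. Of 29 tested members of the ATF4 list 22 rose and 4 fell (median 0.88, against 0.02 over all genes), and 12 rose by at least 1. All 7 tested transcription factors rose and 15 of 16 targets did. Among 6 kinases and sensors none rose and 4 fell, with EIF2AK4 at 5.57, 5.65 and 6.08 FPKM untreated and 5.06, 4.81 and 4.8 FPKM with asparaginase. The list took 0.307% ± 0.00519 of reads in untreated and 0.573% ± 0.00948 in asparaginase libraries (SD, n = 3, exact permutation p = 0.1, two-sided, the smallest that 3 against 3 can give; adjusted p = 0.11 over 11 classes of genes).

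Promoters of 3 of these genes are shown because they carry the 8-base amino acid response element. The element searched was TTNCATCA on either strand, in the RefSeq windows (GRCh38.p14) from 250 bases before to 50 after each gene's start. It was present for 5 of 25 ATF4 list genes that matched a window (CHAC1, ATF3, CEBPG, HERPUD1 and JDP2), and these 5 rose. ATF3 and CEBPG have 2 windows each, 1 of them with the element. Of all 27305 genes with a window 4.46% hold it, and of the tested genes with a window 2.46%. The 250 bases before the start are printed 5′ to 3′ on the gene's strand, with the element in capitals.
CHAC1 (chr15:40953221-40953470, plus strand): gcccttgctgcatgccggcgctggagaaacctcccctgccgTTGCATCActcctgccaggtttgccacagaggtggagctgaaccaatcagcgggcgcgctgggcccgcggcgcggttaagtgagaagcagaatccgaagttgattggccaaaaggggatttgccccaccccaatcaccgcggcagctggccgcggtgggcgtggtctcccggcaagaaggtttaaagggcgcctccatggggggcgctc
ATF3 (chr1:212565157-212565406, plus strand): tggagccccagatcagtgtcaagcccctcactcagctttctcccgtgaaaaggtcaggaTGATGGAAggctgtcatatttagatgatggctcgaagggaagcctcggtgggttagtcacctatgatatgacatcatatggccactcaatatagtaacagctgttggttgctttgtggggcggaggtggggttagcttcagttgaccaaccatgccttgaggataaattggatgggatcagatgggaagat
CEBPG (chr19:33373863-33374112, plus strand): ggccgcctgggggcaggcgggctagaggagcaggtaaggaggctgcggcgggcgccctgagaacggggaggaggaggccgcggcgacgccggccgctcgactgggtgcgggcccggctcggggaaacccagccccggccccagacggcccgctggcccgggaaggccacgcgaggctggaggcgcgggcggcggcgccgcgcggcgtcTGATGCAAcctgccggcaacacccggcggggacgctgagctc
The element starts 209 bases before the start of CHAC1, 191 before that of ATF3 and 42 before that of CEBPG. A match is a description of the letters, not evidence of binding.

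CHAC1, which breaks down glutathione, read 4.04, 4.98 and 3.7 FPKM in untreated and 15.2, 16.4 and 17.7 FPKM in asparaginase libraries (log2 change 1.74 ± 0.128, SE, limma adjusted p = 9.78e-07). All 3 asparaginase libraries were above all untreated ones. TRIB3, a pseudokinase that ATF4 and DDIT3 induce, read 24.2, 20.8 and 24.0 FPKM and then 153, 187 and 182 FPKM (untreated libraries come first throughout), the largest rise in the list (2.86). DDIT3, or CHOP, a transcription factor of prolonged stress, read 9.22, 11.2 and 9.77 FPKM untreated and 69.6, 57.9 and 62.4 FPKM treated. Neither pair of groups overlapped. PPP1R15A (ENSG00000087074, chromosome 19 from 48872392 to 48876057, plus strand, GRCh38) directs the phosphatase that restores eIF2. It read 7.02, 6.42 and 7.98 FPKM in untreated and 43.5, 44.5 and 46.3 FPKM in asparaginase libraries (2.50 ± 0.0747, limma adjusted p = 2.73e-09), again without overlap. CEBPB, a C/EBP partner of ATF4, rose from 15.5 ± 1.12 to 72.1 ± 7.2 FPKM (SD, n = 3). SESN2 and DDIT4, which restrain mTORC1, rose by 2.13 and 1.72. ATF4 messenger RNA itself moved less, from 189, 195 and 206 FPKM to 229, 236 and 238 FPKM, a rise of 0.25.

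Enzymes of asparagine and related amino acids did not move as a group: 7 of 17 rose and 7 fell (median -0.09). Those counted as higher include ASS1, whose decimal place is uncertain, as described below. ASNS, asparagine synthetase, read 0.6, 0.506 and 0.52 FPKM in untreated and 1.62, 1.41 and 1.67 FPKM in asparaginase libraries (0.73 ± 0.0922, limma adjusted p = 5.41e-05). All 3 asparaginase libraries were above all untreated ones but stayed under 2 FPKM, far below ATF4 or TRIB3 per length. The ratio of its means was 2.89, and the 1 FPKM added before the log shrinks its log2 change. The aspartate aminotransferases split by compartment. The cytosolic GOT1 read 6.17, 6.2 and 5.66 FPKM and then 16.5, 18.1 and 15.3 FPKM, and the mitochondrial GOT2 58.2, 50.7 and 56.3 FPKM and then 22.9, 23.9 and 25.4 FPKM. Neither pair overlapped, and GOT1 rose by 1.33 while GOT2 changed by -1.16. AGA, a lysosomal enzyme of glycoprotein breakdown, rose from 2.54 ± 0.444 to 5.06 ± 0.529 FPKM (SD, n = 3). ASS1, argininosuccinate synthetase, read 17.5, 18.9 and 18.6 FPKM with asparaginase. Its untreated values (3.21, 3.68 and 3.06 FPKM) rest on a decimal place with a posterior of 0.817, and values 10 times as high would turn its direction.

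Serine and one-carbon enzymes also split: 7 of 23 rose and 11 fell (median -0.11). The 3 enzymes of serine synthesis rose, PHGDH by 0.50, PSAT1 by 0.46 and PSPH by 0.69. SHMT2, the mitochondrial serine hydroxymethyltransferase, rose by 0.36, and MTHFD2 by 0.17, a call that was lost in 5 of the 6 fits without 1 library (adjusted p from 0.0706 to 0.144). TYMS, which makes thymidylate, read 217, 216 and 219.8 FPKM untreated and 112, 124 and 118 FPKM treated, and MTHFD1, a cytosolic folate enzyme, changed by -0.72. AHCY, of the methyl cycle, changed by -1.11.

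Amino acid carriers were more often higher: 11 of 22 rose and 5 fell (median 0.27). SLC6A9, a glycine carrier, read 3.36, 3.02 and 3.45 FPKM and then 11.1, 11.6 and 12.5 FPKM. SLC7A11, the cystine exchanger, read 0.899, 0.889 and 0.919 FPKM and then 3.52, 3.17 and 3.27 FPKM. Both sets were separate, with rises of 1.57 and 1.18. The partner chain SLC3A2 (1.24), its large neutral amino acid carrier SLC7A5 (0.87), SLC43A1 (1.21) and the glutamine and alanine carrier SLC38A2 (0.71) rose, and SLC1A3, a glutamate and aspartate carrier, changed by -1.06.

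The aminoacyl-tRNA synthetases, which charge transfer RNAs, moved unequally. Among the 23 cytoplasmic ones 8 rose and 10 fell (median -0.17, with 5 lower under TPM and under quantile normalization). WARS, for tryptophan (ENSG00000140105, chromosome 14 from 100333788 to 100376805, minus strand), read 14.7, 14.5 and 15.8 FPKM untreated and 77.8, 79.0 and 77.5 FPKM with asparaginase (2.31 ± 0.0408, limma adjusted p = 1.32e-10). No other member rose by as much as 1: AARS, for alanine, rose by 0.77, and NARS, the asparagine enzyme, by 0.25, a call lost in 4 of the 6 fits without 1 library (adjusted p from 0.0519 to 0.118). FARSA and FARSB, the subunits of the phenylalanine enzyme, changed by -0.78 and -0.84, KARS by -0.83 and RARS by -0.78. Of the 17 mitochondrial synthetases 1 rose and 10 fell (median -0.39), LARS2 from 11.7 ± 0.672 to 6.09 ± 0.316 FPKM. The 1 higher call was lost without untreated library 2 or 3 or asparaginase library 2, and TPM and voom called 3 higher.

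Of 26 translation factors 2 rose and 13 fell (median -0.18), while quantile normalization called 10 of them higher. PDCD4, which inhibits the helicase of initiation, read 8.84, 8.49 and 8.02 FPKM and then 30.8, 28.6 and 26.5 FPKM, the one member above 1 (1.65). EIF2B3, a subunit of the exchange factor that phosphorylated eIF2 blocks, fell by 0.97 and the scaffold EIF4G1 by 0.79. EIF4EBP1, an ATF4 target and translational repressor, changed by -0.06 (limma adjusted p = 0.594). It was higher under quantile normalization (0.31, limma adjusted p = 0.0223). In the mTORC1 list 8 of 35 rose and 11 fell (median -0.08), shares near those of all genes. FLCN and FNIP1, which form a complex that acts on the Rag GTPases, rose by 0.78 and 0.79.

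Chaperones fell together. Of 38 tested genes of the heat shock list 36 fell and none rose (median -1.04), and 21 fell by at least 1. Among them 35 of 36 chaperones and 1 of 2 regulators fell. The list took 2.35% ± 0.0910 of reads in untreated and 1.02% ± 0.0538 in asparaginase libraries (SD, n = 3, exact permutation p = 0.1, two-sided, adjusted p = 0.11). HSPA8, the constitutive cytosolic HSP70, read 631, 669.8 and 679 FPKM untreated and 186, 173 and 181 FPKM treated. HSPB1, a small heat shock protein (ENSG00000106211, chromosome 7 from 76302544 to 76304295, plus strand), read 265, 213 and 272 FPKM and then 48.4, 59.1 and 60.9 FPKM (-2.13 ± 0.125, limma adjusted p = 2.06e-07). The cytosolic HSP90 genes HSP90AA1 and HSP90AB1 changed by -1.75 and -1.63. In mitochondria HSPD1, the chaperonin, read 412, 468 and 423 FPKM and then 157, 138 and 137 FPKM, and its lid HSPE1 changed by -1.90, while CCT2 of the cytosolic chaperonin changed by -1.05. None of these groups overlapped. HSPE1 and the HSP90 genes have near-identical copies elsewhere, with which they may share reads. The heat shock element GAANNTTC was in 38.2% of 34 matched genes of the list, against 6.29% of tested genes and 8.21% of all genes with a window.

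The endoplasmic reticulum list divided by role. Of 23 chaperones and folding enzymes 17 fell and 2 rose (median -0.53). Of 16 genes of ER-associated degradation 6 rose and 5 fell (median 0.13), and of 9 sensors and factors 3 rose and 2 fell. EDEM1, which marks misfolded glycoproteins for degradation, read 36.8, 35.8 and 38.9 FPKM and then 113, 124 and 124 FPKM. SDF2L1, a cofactor of HSPA5, read 53.5, 47.1 and 59.5 FPKM and then 12.2, 18.0 and 15.3 FPKM, and MANF changed by -1.44. EDEM1 rose by 1.66 while SDF2L1 changed by -1.76, and neither pair overlapped. XBP1 changed by -0.28 and was at 0.05 under quantile normalization (limma adjusted p = 0.357).

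Promoters of 3 ER chaperones are shown because they hold the ER stress element, through which ATF6 and XBP1 act. It was searched as CCAAT, any 9 bases, then CCACG, on either strand. Of all 27305 genes with a window 0.0916% hold it. Of 15 tested genes with it 8 fell and 0 rose, and within the ER list 8 of 44 matched genes hold it.
HSPA5 (chr9:125241344-125241593, minus strand): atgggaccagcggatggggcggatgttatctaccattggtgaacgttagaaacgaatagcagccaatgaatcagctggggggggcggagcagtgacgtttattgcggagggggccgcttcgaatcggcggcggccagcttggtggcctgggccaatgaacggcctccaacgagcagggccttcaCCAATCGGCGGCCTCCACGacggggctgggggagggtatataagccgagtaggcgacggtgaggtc
CALR (chr19:12938359-12938608, plus strand): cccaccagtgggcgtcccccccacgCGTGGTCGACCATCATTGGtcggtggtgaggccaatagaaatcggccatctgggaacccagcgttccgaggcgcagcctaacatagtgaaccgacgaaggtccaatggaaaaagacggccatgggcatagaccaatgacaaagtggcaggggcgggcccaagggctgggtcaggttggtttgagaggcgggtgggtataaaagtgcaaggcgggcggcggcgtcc
HSP90B1 (chr12:103930160-103930409, plus strand): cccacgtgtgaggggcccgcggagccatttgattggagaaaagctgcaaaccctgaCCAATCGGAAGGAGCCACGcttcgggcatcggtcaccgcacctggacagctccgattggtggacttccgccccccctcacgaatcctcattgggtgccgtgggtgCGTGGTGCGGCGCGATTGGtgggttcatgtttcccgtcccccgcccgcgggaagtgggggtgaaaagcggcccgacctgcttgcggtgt
Capitals mark the element, which begins 66 bases before the start of HSPA5 and 225 before that of CALR. HSP90B1 holds it at 194 and at 89 bases. HSPA5, the HSP70 of this compartment, read 157, 167 and 160.0 FPKM untreated and 42.6, 43.3 and 41.4 FPKM with asparaginase. CALR, a lectin chaperone, read 377, 356 and 384 FPKM and then 137, 143 and 139 FPKM, and HSP90B1, its HSP90, 144, 177 and 147 FPKM and then 66.4, 55.4 and 53.9 FPKM. All 3 fell without overlap, by 1.90, 1.41 and 1.40 on the log2 scale.

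The proteasome fell nearly as a block: 35 of 39 members fell, none rose, and the median was -0.67. PSMD1, the largest subunit of the regulatory particle, read 40.4, 41.3 and 41.4 FPKM and then 14.1, 13.8 and 13.3 FPKM (-1.51 ± 0.0409, limma adjusted p = 2.03e-09). PSMA3 and PSMB2 of the core changed by -1.25 and -1.21, and the activator PSME3 by -0.99. The groups were separate in each.

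**Figure D4:**
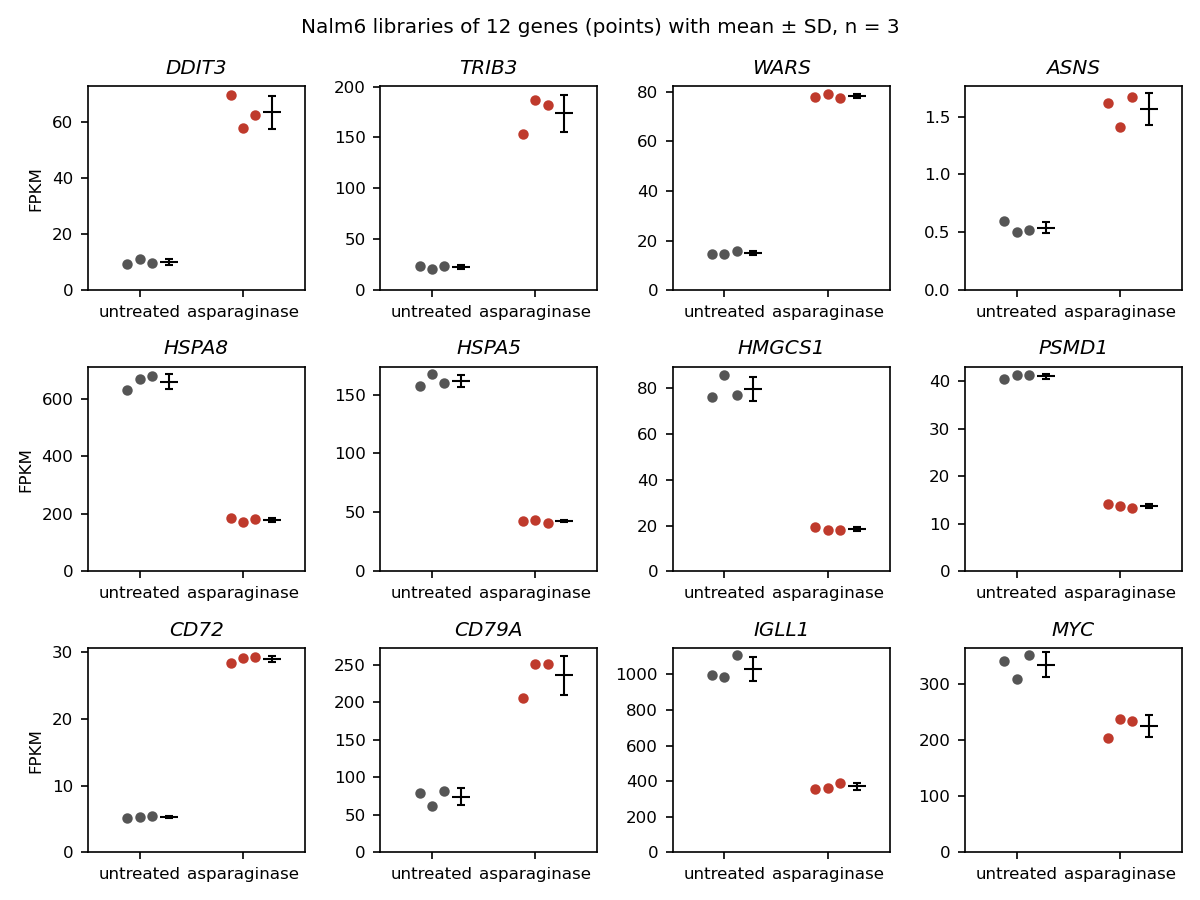
FPKM of 12 genes in the 3 untreated (grey) and 3 asparaginase (red) Nalm6 libraries, on axes from 0, with the mean and SD (n = 3) beside the points. In each panel the groups are separate: DDIT3, TRIB3, WARS, ASNS, CD72 and CD79A are higher with asparaginase and the other 6 lower.

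Genes of ribosome assembly fell, while most ribosomal proteins were not called. Of 46 genes of ribosome biogenesis and RNA polymerase I 43 fell and none rose (median -0.66). NCL, nucleolin, read 333, 388 and 331 FPKM and then 184, 161 and 151 FPKM. EBNA1BP2, needed for the large subunit, read 49.7, 55.4 and 51.5 FPKM and then 21.2, 19.6 and 18.4 FPKM. Both were separate, and NPM1 changed by -1.06, FBL by -0.89 and LYAR by -1.28. Of 78 ribosomal proteins 28 (35.9%) fell and 3 rose (median -0.14), a split that turned with scaling (1 rose without asparaginase library 3): TPM called 18 higher and 14 lower, and quantile normalization 35 higher and 7 lower. They took 6.61% ± 0.225 of reads untreated and 6.61% ± 0.0408 with asparaginase (SD, n = 3). RPS26 read 121, 122 and 133 FPKM and then 59.5, 69.8 and 66.6 FPKM (-0.93), the largest fall among them. Small nucleolar RNA host genes went both ways (7 of 24 rose, 8 fell, and 5 fell without untreated library 2 or asparaginase library 2). Their shares (29.2% and 33.3%) were near those of all genes tested (28.2% and 28.1%). GAS5 and ZFAS1, whose spliced RNAs are degraded during translation, rose by 0.93 and 1.26, from 60.2, 67.1 and 57.2 FPKM to 130.4, 112 and 111 FPKM for GAS5, while SNHG4 changed by -1.14.

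Genes of nucleotide synthesis and DNA replication fell. In purine and pyrimidine synthesis 23 of 28 fell and none rose (median -0.59). RRM1, a subunit of ribonucleotide reductase, read 68.0, 63.9 and 68.1 FPKM and then 24.5, 24.4 and 23.7 FPKM. PAICS, a purine enzyme, changed by -1.16 and CTPS1 by -0.65, and CAD, which opens pyrimidine synthesis, had a change of -0.27 that was not called (limma adjusted p = 0.075). In DNA replication 39 of 42 fell and none rose (median -0.69). CDC6, which loads the replicative helicase, read 23.9, 24.2 and 25.2 FPKM and then 10.1, 8.92 and 9.68 FPKM. MCM4, a helicase subunit, read 83.7, 77.5 and 83.2 FPKM and then 34.5, 37.1 and 37.2 FPKM, and the clamp PCNA 347, 349 and 373 FPKM and then 196, 199 and 191 FPKM. None of these overlapped. E2F elements (TTTCCCGC or TTTGGCGC) were in 44.4% of 36 matched replication genes, 4.89% of tested genes and 2.75% of all genes with a window.

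Mitosis and G1 genes also fell for the most part. Among mitosis genes 24 of 34 (70.6%) fell and 2 rose (median -0.41). Of the highest decile by level 64.8% fell (median -0.36), so this count is not read as a trait of mitosis genes. No mitosis gene rose without asparaginase library 3 or with no filter on low values, and 1 rose without any other single library. CCNA2, a cyclin of S phase and mitosis, read 76.2, 85.5 and 83.9 FPKM and then 42.7, 40.0 and 42.2 FPKM and the kinase PLK1 28.6, 25.0 and 28.6 FPKM and then 18.7, 20.1 and 21.2 FPKM. All 11 tested G1 drivers fell (median -0.59). CDC25A, the phosphatase that frees CDK2, read 38.7, 35.2 and 36.4 FPKM and then 15.9, 14.6 and 16.4 FPKM, and CCND3, the main D cyclin of these cells by level, changed by -0.85. Of 10 inhibitors 5 rose and 4 fell. CDKN1B, or p27, read 24.1, 27.3 and 25.8 FPKM and then 50.4, 49.8 and 49.0 FPKM, and CDKN1A, or p21, 43.2, 41.2 and 47.0 FPKM and then 78.4, 88.2 and 84.6 FPKM. Both rose by 0.92 with no overlap. MYC read 341, 309 and 352 FPKM untreated and 203, 238 and 234 FPKM treated (-0.57 ± 0.106, limma adjusted p = 0.000859). The MAX partners MXD4, MXD1 and MXI1, which oppose MYC, rose by 0.88, 0.64 and 0.52. Of 50 clustered histone genes 8 passed the filter, 5 of them under 1 FPKM in every untreated library and so through treated groups, and no count is read from these. Most histone messenger RNAs lack a poly(A) tail, so their levels depend on how RNA was selected.

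Most genes of lipid synthesis fell, and most of the few for cholesterol efflux rose. Of 22 enzymes and receptors of cholesterol synthesis and uptake 19 fell and 2 rose (median -0.78), and of 6 efflux and LXR target genes 4 rose and 1 fell. HMGCS1, which opens the pathway, read 76.3, 85.8 and 77.2 FPKM and then 19.6, 18.1 and 18.2 FPKM. FDFT1, the squalene synthase, read 57.1, 57.3 and 58.3 FPKM and then 24.1, 23.8 and 24.6 FPKM. Neither pair overlapped. INSIG1, the sterol sensor's anchor, changed by -1.30. ABCA1, which exports cholesterol, read 0.764, 0.585 and 0.565 FPKM and then 3.42, 3.23 and 3.6 FPKM (1.43). SREBF2, the factor that drives the pathway, changed by -0.25, a call lost in 4 of the 6 fits without 1 library (limma adjusted p from 0.051 to 0.125) and at 0.01 under quantile normalization. The sterol element TCACNCCAC was in the window of 1 of 27 matched genes of the list, SREBF2, against 1.39% of all genes with a window. Of 15 fatty acid genes 14 fell and 1 rose (median -0.60), with SCD, the desaturase, at 102, 91.2 and 101 FPKM and then 28.6, 28.4 and 29.9 FPKM and FASN at -1.02.

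Most nuclear genes of energy metabolism fell. Of the highest decile by level 64.8% fell (median -0.36), and the part of level in the lists of this paragraph was not separated. In glycolysis and the pentose phosphate pathway 22 of 30 fell and 1 rose (median -0.63), and the list's share of reads went from 1.05% ± 0.0559 to 0.611% ± 0.0224 (SD, n = 3, exact permutation p = 0.1, two-sided, adjusted p = 0.11). ENO1, enolase, read 309, 288 and 311 FPKM and then 106, 114 and 111 FPKM, and LDHA, lactate dehydrogenase, 106, 103 and 108 FPKM and then 33.7, 35.6 and 34.0 FPKM. Of 65 nuclear respiratory chain genes 57 fell and 1 rose (median -0.60). ATP5MC1, a ring subunit of ATP synthase, read 43.9, 42.8 and 45.5 FPKM and then 15.9, 14.3 and 16.0 FPKM, and CYCS, cytochrome c, changed by -1.28. The 13 messenger RNAs of mitochondrial DNA did not follow: 2 rose (MT-CYB by 0.37, MT-CO1 by 0.30), none fell, and the median was 0.04 (6 were called higher under TPM and 7 with voom). Without asparaginase library 2, MT-CYB was no longer called (limma adjusted p = 0.0511). Mitochondrially encoded genes took 3.76% ± 0.168 of reads untreated and 4.69% ± 0.170 with asparaginase (SD, n = 3, exact permutation p = 0.1, two-sided, adjusted p = 0.11), with the ribosomal RNA MT-RNR2 higher by 0.69. In the antioxidant list of NRF2 and glutathione genes 20 of 28 (71.4%) fell and 2 rose (median -0.62). TXN, thioredoxin, read 131, 163 and 141 FPKM and then 53.4, 48.7 and 51.1 FPKM, and the peroxiredoxins PRDX1 and PRDX3 changed by -1.07 and -1.16.

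Most genes linked to the resting state rose. Of 24 FOXO targets and quiescence-linked genes 16 rose and 2 fell (median 0.37), 8 of them by at least 1. YPEL5 (ENSG00000119801, chromosome 2 from 30146941 to 30160533, plus strand), of a family linked to resting lymphocytes, read 2.27, 2.86 and 3.11 FPKM and then 16.4, 16.2 and 14.8 FPKM (2.17 ± 0.11, limma adjusted p = 7.66e-08). TXNIP, which limits glucose uptake, read 15.5, 15.9 and 14.8 FPKM and then 50.4, 47.5 and 48.2 FPKM, and TSC22D3, or GILZ, 8.78, 7.41 and 9.19 FPKM and then 32.2, 31.9 and 33.0 FPKM. All 3 were separate. CCNG2 and IRS2 rose by 1.49 and 1.42, and FOXO1 itself by 0.37. The FOXO element TGTTTAC was in 10.3% of 155 matched genes that rose by at least 1, 2.01% of 149 that fell by at least 1, 3.49% of tested genes and 4.19% of all genes with a window.

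The p53 list had 13 of 27 genes higher and 3 lower (median 0.16). BTG2, an antiproliferative gene, read 9.32, 8.88 and 8.37 FPKM and then 26.6, 25.9 and 26.5 FPKM, while MDM2, p53's own inhibitor and target, changed by -0.23. ZMAT3 and TP53INP1 rose by 1.10 and 1.29. The BCL2 family, which decides on apoptosis, went both ways: 8 of 16 rose and 7 fell. BMF read 0.425, 0.426 and 0.474 FPKM and then 2.5, 3.14 and 3.4 FPKM, and BBC3, or PUMA, 3.57, 4.11 and 3.7 FPKM and then 7.82, 9.52 and 9.01 FPKM, while BCL2L11, or BIM, read 8.7, 7.76 and 8.69 FPKM and then 5.47, 5.13 and 5.6 FPKM. These BH3-only genes promote death, and none of the 3 pairs overlapped. The survival genes BCL2 and MCL1 changed by -0.30 and -0.27, and MCL1 was at 0.05 under quantile normalization (limma adjusted p = 0.457).

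Most genes of antigen presentation rose. Of 13 MHC class II genes 11 rose and none fell (median 0.61), and their share of reads went from 0.179% ± 0.00772 to 0.316% ± 0.00619 (SD, n = 3). HLA-DPB1 read 22.5, 23.2 and 22.6 FPKM and then 55.9, 54.8 and 55.7 FPKM, and CIITA, the coactivator of the whole class, 7.67, 7.45 and 7.38 FPKM and then 13.1, 13.5 and 13.8 FPKM. Both were separate. Of 12 MHC class I genes 9 rose and none fell (median 0.42). HLA-E read 57.5, 58.1 and 56.9 FPKM and then 107, 107 and 105 FPKM, and NLRC5, the class I coactivator, rose by 0.54, while B2M (0.28, limma adjusted p = 0.0735) was not called. HLA genes are near copies of each other and may share reads. The interferon list was mixed (11 of 26 rose, 6 fell): IRF7 rose by 1.11 and STAT2 by 1.04, and IFI44 changed by -1.19. Of 18 NF-kappaB targets 4 rose and 3 fell (median 0.02), with 2 higher without asparaginase library 3 and 8 under TPM and voom.

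The precursor B cell programme shifted in parts. CD72 (ENSG00000137101, chromosome 9 from 35609533 to 35646810, minus strand), an inhibitory coreceptor of the B cell receptor, read 5.21, 5.25 and 5.39 FPKM untreated and 28.4, 29.1 and 29.2 FPKM treated (2.25 ± 0.0648, limma adjusted p = 2.03e-09). The receptor's signalling chain CD79A read 79.4, 61.5 and 82.1 FPKM and then 206, 251 and 252 FPKM. The surrogate light chains that pair with the heavy chain before a light chain is made went the other way, IGLL1 at 998, 984 and 1110.1 FPKM and then 357, 364 and 392 FPKM and VPREB1 at 273, 285 and 280.4 FPKM and then 133, 146 and 148 FPKM. All 4 were separate. In the whole list 13 of 27 rose and 7 fell (median 0.11), and BTK (0.04, limma adjusted p = 0.44) was not called. CD79B rose by 0.53. The recombinase genes RAG1, RAG2 and DNTT changed by -0.43, -0.20 and -0.31. All 3 were called lower, but RAG2 (0.09) and DNTT (0.01) had the other sign and were not called under quantile normalization.

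Among B lineage transcription factors 13 of 27 rose and 7 fell (median 0.19). ID3, which blocks E proteins, read 59.2, 49.7 and 58.9 FPKM and then 12.5, 12.1 and 13.3 FPKM, the largest fall of the list, and ID1 changed by -0.89 while ID4 rose by 0.99. ETS1 read 8.31, 7.97 and 7.45 FPKM and then 26.9, 24.9 and 24.7 FPKM. PAX5, which fixes B identity, rose from 92.4 ± 7.45 to 147 ± 12.4 FPKM (SD, n = 3), EBF1 by 0.31, BACH2 by 0.85 and IKZF2 by 1.01, while IKZF1 changed by -0.23. Of surface antigens 4 of 15 rose and 5 fell, shares near those of all genes tested (28.2% and 28.1%). TFRC, the transferrin receptor of dividing cells, read 71.0, 68.4 and 70.3 FPKM and then 20.3, 19.2 and 19.0 FPKM. The therapeutic target CD22 changed by -0.29, and CXCR4, the marrow homing receptor, rose by 0.55. In the ERK feedback and immediate early list 10 of 20 rose and 3 fell (6 lower under quantile normalization and 5 with GC and length trends removed). ETV5 and JUND rose by 0.90 and 0.89.

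Of 32 autophagy genes 12 (37.5%) rose and 5 (15.6%) fell (median 0.12), against 28.2% and 28.1% of all genes tested. The fourth decile by level had similar shares (36.0% and 13.7%), so the count is not read as a trait of these genes. Among 35 lysosomal genes 9 rose and 10 fell, shares near those of all genes. MAP1LC3B, which coats autophagosomes, read 14.3, 14.7 and 14.2 FPKM and then 45.0, 51.2 and 48.5 FPKM. The receptors OPTN and NBR1 rose by 0.86 and 0.83 and SQSTM1 by 0.39, while TFEB (-0.06, limma adjusted p = 0.618) was not called. In the list of ubiquitin and RNA decay genes 5 of 23 rose and 6 fell, also near the shares of all genes. ZFP36L1, which speeds the decay of AU-rich messenger RNAs, read 21.8, 19.4 and 20.8 FPKM and then 44.8, 44.1 and 45.6 FPKM. Both named first members of these lists, MAP1LC3B and ZFP36L1, were separate between groups.

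Other motifs were searched in the same windows. The cyclic AMP element TGACGTCA was in 4.52% of genes that rose and 5.37% of those that fell by at least 1, against 3.93% of tested and 2.25% of all genes. The E-box CACGTG was in 14.8%, 17.4%, 13.1% and 8.77%, and TCACGTGA, the CLEAR element, which contains that E-box, in 1.29%, 1.34%, 2.42% and 1.18%. In all, 8751 of 13237 tested genes matched a RefSeq window.

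Outside the lists, the protein-coding genes with the largest rises were led by OSCAR (ENSG00000170909, chromosome 19 from 54094668 to 54102692, minus strand), an immunoglobulin-like receptor for collagen. It read 6.3, 6.86 and 5.84 FPKM in untreated and 46.9, 58.0 and 55.2 FPKM in asparaginase libraries (2.89 ± 0.144, limma adjusted p = 7e-08). ENPP2, or autotaxin, which makes lysophosphatidic acid, read 1.08, 1.25 and 1.16 FPKM and then 9.27, 9.19 and 8.19 FPKM. H1F0, a linker histone of non-dividing cells, read 10.1, 8.88 and 8.95 FPKM and then 46.7, 42.8 and 43.2 FPKM. The integrin chain ITGA6 read 5.2, 4.81 and 4.76 FPKM and then 24.6, 25.8 and 23.5 FPKM. The rule that named these genes required separate groups, so their separation adds nothing. PCK2, the mitochondrial phosphoenolpyruvate carboxykinase, rose by 1.86, the DNA glycosylase NEIL1 by 2.02 and C6orf48, which hosts small nucleolar RNAs, by 1.73. CALML6, SYTL1, TMIE, KIF21B, PABPC1L, PARP15 and LGALS1 rose by 1.66 to 2.07.

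The largest falls outside the lists were ACOT7, an acyl-CoA thioesterase, at 26.4, 23.5 and 26.6 FPKM and then 5.6, 6.55 and 6.3 FPKM, and GSTP1, a glutathione transferase, at 22.0, 20.6 and 20.5 FPKM and then 5.66, 5.05 and 5.7 FPKM. FABP5, a fatty acid carrier, read 127, 130.0 and 142 FPKM and then 38.6, 37.8 and 39.3 FPKM, and EIF5A, the hypusine-bearing translation factor, 349, 337 and 363 FPKM and then 121, 127 and 127 FPKM. The cytokine MIF (-1.53), the RNA export factor ALYREF (-1.54), POLR3G of RNA polymerase III (-1.48), POP1 of RNase P (-1.43), the tubulin TUBA1B (-1.43) and the metallothionein MT1H (-1.36) fell. CHAC2, S100A4, TAGLN2, DDN and ARRB1 fell by 1.40 to 1.62.

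Among long non-coding RNAs of at least 2 FPKM, the intergenic AL713998.1 (ENSG00000227706, chromosome 6 from 67887646 to 67889339, minus strand) read 3.48, 3.61 and 3.46 FPKM and then 32.4, 39.4 and 34.8 FPKM, the largest rise among them (3.01). MALAT1, an abundant nuclear RNA, read 4.93, 8.03 and 5.93 FPKM and then 29.2, 21.3 and 21.7 FPKM. The antisense gene DDIT4-AS1 rose by 1.69 and MIF-AS1 changed by -1.57, and without strand their reads cannot be told from those of DDIT4 and MIF. AP000345.2 read 21.1, 23.2 and 25.6 FPKM and then 4.29, 4.77 and 6.59 FPKM, the largest fall among them (-1.98). Only 15 genes went from under 0.3 FPKM in all untreated libraries to at least 1 FPKM in all asparaginase libraries, and 2 the reverse way. By this definition they passed the filter only through groups where they are high, so the counts are no support for a rise. DMGDH, which oxidises dimethylglycine, read 0.0339, 0.135 and 0.126 FPKM and then 1.92, 1.77 and 1.75 FPKM, the tetraspanin TSPAN8 0.189, 0.153 and 0.236 FPKM and then 1.46, 1.93 and 1.87 FPKM, and SPNS3 0.0885, 0 and 0.148 FPKM and then 1.55, 1.94 and 1.93 FPKM. SH2D5, one of the 2 that went down, read 1.11, 1.24 and 1.08 FPKM and then 0.188, 0.147 and 0.249 FPKM.

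Many genes often used to normalise measurements fell. Of 17 reference genes 9 (52.9%) fell and none rose (median -0.25). Of all genes tested 28.1% fell, and of the highest decile by level 64.8%. TPM and voom each called 2 reference genes higher and quantile normalization 5. On the log2 scale ACTB fell by 0.57, GAPDH by 0.73, PPIA by 1.07, PGK1 by 1.06 and HPRT1 by 1.13, and TBP changed by -0.31. Under quantile normalization the median of these genes was 0.07 above that of all genes. As shares of reads, HSP90AA1 lost most, from 0.432% to 0.140% of all gene reads, and MT-CO1 gained most, from 1.03% to 1.39%. PTMA, TUBB, TUBA1B, NCL and HSPD1 were among the other 9 genes that lost most. EEF1A1 went from 0.901% to 1.11% and AEBP1, a secreted protein of the matrix, from 0.112% to 0.203%.

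The comparison with ibrutinib asked whether asparaginase differed from the other single drug. It uses the same asparaginase libraries, so the 2 contrasts are not independent. Of 13237 genes 6264 (47.3%) were called, 3177 higher and 3087 lower with asparaginase (3947 and 2382 after rescaling to TPM). PPP1R15A averaged 9.2 FPKM with ibrutinib and 44.8 FPKM with asparaginase (log2 difference 2.17, limma adjusted p = 1.32e-08), and WARS 19.1 and 78.1 FPKM (1.98). HSPA8 averaged 550.2 and 179.9 FPKM (-1.61). For other genes the ibrutinib mean lay further from the untreated one, on the side of asparaginase. HMGCS1 averaged 79.7 FPKM untreated, 40.9 FPKM with ibrutinib and 18.6 FPKM with asparaginase, and CHAC1 4.24, 8.81 and 16.5 FPKM. Ibrutinib against untreated was not tested here. RAG1 differed most among the recombinase genes, at 149 FPKM with ibrutinib and 55.8 FPKM with asparaginase (-1.40, limma adjusted p = 1.32e-08). Untreated libraries read 79.2, 74.1 and 73.7 FPKM for RAG1, so this gap includes a higher level with ibrutinib as well as a lower one with asparaginase. In the ATF4 list 22 of 29 members were higher than with ibrutinib and 4 lower (median difference 0.71), in the heat shock list 0 and 34 of 38 (-0.82), and in the cholesterol list 5 and 17 of 33 (-0.25).

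The comparison with Sem asked whether the effect of asparaginase differed between lines. The difference of the effects was called for 5061 of 15116 genes (33.5%). It was called for all 29 genes described that led outside the lists, and on the log2(FPKM + 1) scale each moved less in Sem. They were picked for large changes in Nalm6, so a smaller change in Sem is partly built in. OSCAR averaged 0.0671 FPKM untreated and 0.965 FPKM treated in Sem. Both lie under the 1 FPKM added before the log, which shrinks its change there. As a ratio of means its rise was not smaller in Sem than in Nalm6. MT1H had no read and H1F0 almost none in those Sem libraries, so their differences restate the Nalm6 changes. PCK2 averaged 17.5 and 41.2 FPKM in Sem, less of a rise (difference -0.67). LGALS1 averaged 140.3 and 98.5 FPKM, lower with asparaginase. In the lists, the difference (log2 effect in Sem minus that in Nalm6) was not called for TRIB3 (-0.03 ± 0.163, SE, limma adjusted p = 0.896), SESN2 (0.12 ± 0.135, limma adjusted p = 0.519) or WARS (0.11 ± 0.0673, limma adjusted p = 0.212). It was called for PSAT1 (1.37), CHAC1 (1.50) and SLC7A11 (1.22), with a larger effect in Sem than in Nalm6, and for PPP1R15A (-1.80), DDIT3 (-0.99), CEBPB (-0.90) and DDIT4 (-0.54), with a smaller one. In the whole ATF4 list it was called positive for 12 and negative for 10 of 29 genes. HSPA5 (1.61) and HSPA8 (1.52) fell further in Nalm6, with Sem means of 121 and 99.4 FPKM for HSPA5.

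**Figure D5:**
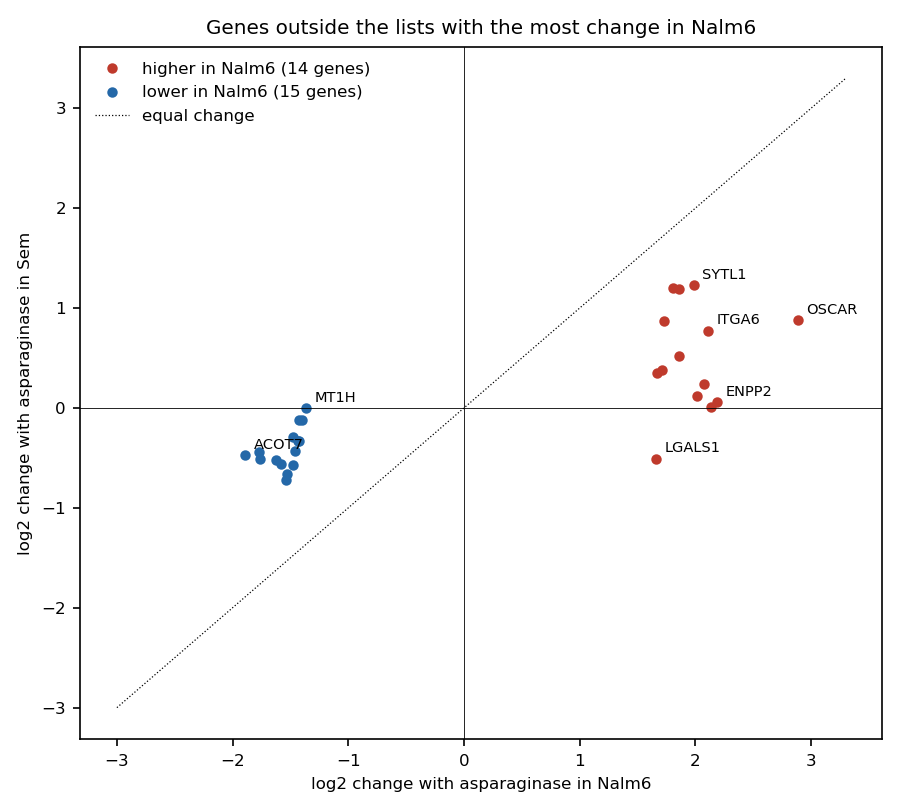
Log2 change of FPKM + 1 with asparaginase in Nalm6 (x axis) and in Sem (y axis) for 14 of the genes outside the lists that rose most (red) and the 15 that fell most (blue) in Nalm6. All 29 lie nearer to 0 in Sem than the dotted line of equal change, and LGALS1 lies on the other side of 0.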

How the data were processed

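Messenger RNA was sequenced from 24 libraries of 2 cell lines, 3 per line and treatment. The submitters' processing notes name fastp, STAR and featureCounts, with versions not given, on GRCh38. Per the file header and the values, the authors deposited FPKM per gene, treated here as a score because every value of 1 or more lost its decimal point (21.2% of 1409640 values, with 206596 values intact and the rest 0). Intact values are whole multiples of 1 step per library, which gave the reads and, jointly over the 12 libraries of a line, the power of 10. Gene identifiers and ends matched GENCODE 29 for all 58735 genes. Limma 3.58.1 in R 4.3.3 (trend, 12 Nalm6 libraries, 8 residual degrees of freedom) tested log2(FPKM + 1), which understates the change of low genes, with Benjamini-Hochberg adjustment, and all 24 libraries for the line difference. Scripts ran in Python 3.11.15 and were tested on simulated data. Read shares were tested by exact permutation, where 3 against 3 cannot go below 0.1. Genes are named by rule: key members and up to 6 largest called changes of each of 47 lists, the 15 largest changes each way outside them at a mean of at least 5 FPKM, the 8 largest each way among long non-coding RNAs at a mean of at least 2 FPKM, genes crossing from under 0.3 to at least 1 FPKM, and the largest shifts in read share; a few genes that the rule names are not reported here. Members and lists were chosen with earlier results of these data known. Strand was not stated in the sources used here, so overlapping and near-identical genes (HSPE1, EIF5A, NME1, ribosomal proteins, HLA) may share reads. Depth of 15.4 M to 17.7 M reads sets the precision of low genes. Alternatives tried were other scalings, pseudocounts and filters, a replicate block, and leaving out libraries. Same-numbered libraries did not deviate together (r of -0.176, -0.132 and 0.024), so they were not treated as pairs.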

Additional observations from a re-analysis of the deposited data

Results flagged for a closer look

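The effect of asparaginase differed between the lines for 29 genes outside the lists that were among those that changed most in Nalm6, by the interaction of line and drug in limma (adjusted p under 0.05). Values are the log2 effect in Sem minus that in Nalm6. These genes were chosen for large changes in Nalm6, so part of each difference is built into the choice.

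Among genes higher with asparaginase in Nalm6, in order of that change, the values were those of OSCAR (-2.01), ENPP2 (-2.13), H1F0 (-2.12), ITGA6 (-1.34) and CALML6 (-1.84). Those of NEIL1 (-1.90), SYTL1 (-0.76), PCK2 (-0.67), TMIE (-1.34) and KIF21B (-0.61) came next. The last 4 in order of the Nalm6 change were C6orf48 (-0.86), PABPC1L (-1.33), PARP15 (-1.32) and LGALS1 (-2.17). Of these, LGALS1, which encodes galectin-1, was lower with asparaginase in Sem (140.3 FPKM untreated, 98.5 FPKM treated) and higher in Nalm6 (2.11 and 8.79 FPKM). H1F0 averaged 0 and 0.00828 FPKM in Sem, so its value restates the Nalm6 change.

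Among genes lower with asparaginase in Nalm6, the values were ACOT7 (1.42), GSTP1 (1.32), FABP5 (1.25), CHAC2 (1.10) and S100A4 (1.02). For the next 5 genes they were ALYREF (0.83), MIF (0.87), POLR3G (1.19), EIF5A (0.90) and TAGLN2 (1.03). The other 5 were POP1 (1.10), TUBA1B (1.10), DDN (1.31), ARRB1 (1.27) and MT1H (1.36), of which MT1H had no read in Sem. GSTP1 averaged 179 and 131 FPKM in Sem.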

How the results depend on the processing

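Of 361 named genes 350 were called, and 321 had the same call in each of the 17 alternatives. Calls of 3738 higher and 3714 lower genes differed between alternatives: higher calls ran from 3169 (without the libraries that stand apart) to 5080 (TPM), and lower calls from 2551 (TPM) to 3988 (GC and length trends removed). Quantile normalization gave 3252 and 3458, and leaving out 1 library 3256 to 3481 and 3312 to 3502. Genes higher by at least 1 numbered 305, but 789 with a pseudocount of 0.1 FPKM, 947 with TPM and 1137 with voom, and genes lower by at least 1 numbered 223 but 352 with that pseudocount. With a replicate block 3672 genes were higher and 3636 lower, and 3 named calls were lost. With it and GC and length trends removed the counts were 4098 and 3941, and 4135 and 3988 without the block. Libraries with the same number shared only that number.

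Under quantile normalization 8 named genes turned: EIF4EBP1 (0.308), SYK (0.117), RAG2 (0.0898), XBP1 (0.0487), MCL1 (0.0470), DNTT (0.0136), UPF1 (0.0135) and SREBF2 (0.00887). EIF4EBP1 and SYK were then called higher (limma adjusted p = 0.0223 and 0.0381). List medians relative to all genes that turned there were those of asparagine and related enzymes (0.10), cytoplasmic tRNA synthetases (0.121), ribosomal proteins (0.192), lysosome (0.0196), recombinase (0.0242), surface antigens (0.168), RNA decay (0.0873), reference genes (0.0681) and precursor B markers (0.241). Without 1 library, the relative median ran from -0.000866 to 0.0984 for mitochondrial messenger RNAs, from -0.00666 to 0.0342 for the interferon list and from -0.00136 to 0.0235 for NF-kappaB targets, and the ribosomal protein share difference from -0.128 to 0.0810 points. NF-kappaB targets also turned with a pseudocount of 0.1 FPKM (-0.000148) and with GC and length trends removed (-0.00549, the same with the block). Counts within lists moved by over 1.5 times mostly with scaling. TPM called 3 lower B lineage factors instead of 7, 3 genes of the pre-B receptor list instead of 7, 5 lysosomal genes instead of 10, 4 asparagine and related enzymes instead of 7 and 1 RNA decay gene instead of 6, and 17 ER genes higher instead of 11. It also called 5 lower tRNA synthetases instead of 10, 3 surface antigens instead of 5 and 5 small nucleolar RNA host genes instead of 8, and 4 glycolysis genes higher instead of 1, as did voom and quantile normalization, and 4 NRF2 genes instead of 2, as did voom. Translation factors called higher numbered 5 under TPM and 10 under quantile normalization, and FOXO targets called lower 0 under TPM and 1 without untreated library 1 or 2 or asparaginase library 2 or 3. The cause was not tested.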
